A study of Mus musculus with 20 samples.

Results

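The liver of mice labelled OGTL KO was compared with the liver of mice labelled OGTL WT at 8 weeks of age, with 5 arrays in each group. These 10 arrays were chosen by their titles from the 20 of the series, whose other 10 arrays hold the same genotypes at 4 weeks. The series' design text gives 5 mice for each group, so each array is taken as 1 animal. Total RNA from frozen, powdered liver was hybridised to Clariom S Mouse arrays, whole-transcript arrays that carry 1 set of probes for most genes. The title names O-GlcNAc transferase, and the L of OGTL is read here as liver. The sources used here do not give the allele, the promoter of any Cre, or the sex, diet and time of tissue collection. Values are the deposited log2 signals, in which 1 unit is a 2-fold step, and they are listed in the order of replicates 1 to 5. A gene is called higher or lower where the limma adjusted p of KO against WT is below 0.05, and all differences are KO minus WT at 8 weeks unless an age is given.

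O-GlcNAc transferase, encoded by Ogt, links a single sugar, N-acetylglucosamine, to serines and threonines of nuclear and cytoplasmic proteins, and O-GlcNAcase, encoded by Oga, removes it. The donor sugar, UDP-GlcNAc, comes from glucose through the hexosamine pathway, so the modification follows the supply of nutrients. In a damaged liver, cells with bile duct genes expand around the portal tracts, which is known as a ductular reaction. Hepatic stellate cells and portal fibroblasts then lay down matrix, and monocytes enter and become macrophages that clear lipid and debris. Many hepatocyte genes of steroid, bile acid and drug metabolism also differ between male and female mice under the control of growth hormone.

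The targeted gene was not called different at this age. Ogt read 9.84, 10.12, 9.92, 10.33 and 10.19 on the WT arrays and 9.86, 10.01, 9.65, 10 and 9.55 on the arrays labelled KO. The groups overlapped, and the difference was -0.27 (SE 0.20, limma adjusted p = 0.529, exact two-sided permutation p = 0.0794), which places the KO-labelled arrays at 83.2% of WT. A permutation test of 5 against 5 arrays cannot give a p below 0.00794. The exons under the probes are also unknown here, so the signal is not taken as a measure of intact transcript. At 4 weeks the same feature had a KO minus WT difference of -1.43 (limma adjusted p = 8.82e-05). Why the ages differ was not tested. The results below therefore describe the libraries labelled KO. Oga read 10.92, 11.23, 11.87, 11.14 and 11.18 in WT and 10.90, 10.59, 10.64, 9.93 and 10.98 in KO, a difference of -0.66 that was not called (adjusted p = 0.0921).

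A pair of arrays stood apart in both groups. Dbp, a clock output gene, read 15.19 on WT replicate 1 and 15.65 on KO replicate 5, and from 7.46 to 9.20 on the other 8 arrays. Arntl, which encodes the clock activator BMAL1 and peaks out of phase with Dbp, read 6.11 and 7.04 on those arrays and from 9.89 to 10.99 elsewhere. The metallothionein gene Mt2 was at 17.65 and 18.50 there, at 7.33 to 9.49 on the other WT arrays and at 12.41 to 14.71 on the other KO arrays. Lcn2, which encodes lipocalin 2, an acute phase and epithelial protein, was at 15.72 and 14.37 there. It was at 7.14 to 9.02 on the other WT arrays and at 10.85 to 11.43 on the other KO arrays, without overlap. Saa1, an acute phase gene, was highest on WT replicate 1 (14.25), while KO replicate 5 (8.05) lay among the others. These genes were chosen after their values were seen, and their part in the results was not tested. Results are therefore also given without WT replicate 1, and without both arrays, which leaves 4 against 4. The acute phase list had 1 of 31 members higher and 0 lower (median -0.11), and 4 higher without WT replicate 1 and 3 without KO replicate 4 or with values held at 16. The array medians ran from 5.42 to 5.51 in WT and from 5.52 to 5.58 in KO, without overlap. The mean correlation of an array with its group ran from 0.984 to 0.990.

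**Figure D1:**
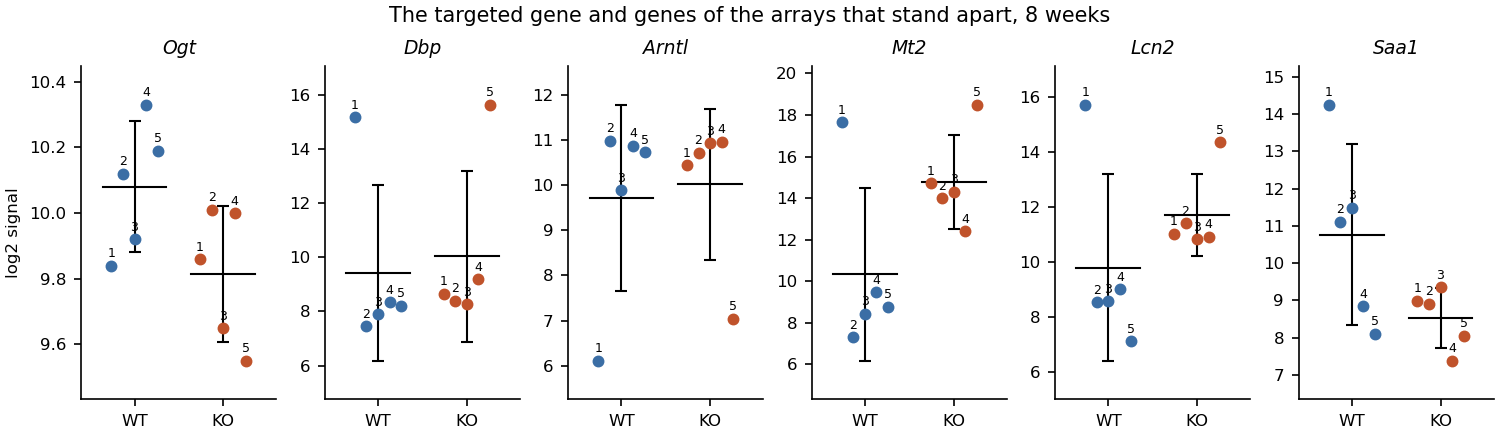
Log2 signal of Ogt and of 5 genes of the clock, metallothionein and acute phase groups on each 8-week array. Each point is 1 array with its replicate number, and black lines show the group mean and SD (n = 5). Ogt overlaps between the groups, and WT replicate 1 and KO replicate 5 lie together for Dbp and Arntl.

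Across 19505 genes, 963 were called higher in KO liver (4.94% of those tested) and 321 lower (1.65%), or 6.58% in either direction. By at least 2-fold, 543 were higher (2.78%) and 53 lower (0.272%). The 5 KO arrays lay wholly above the 5 WT arrays for 4.13% of all genes and wholly below them for 1.96%, and 4.33% were both called and without overlap. The median difference over all genes was -0.04. The balance of directions depended on scaling, since 75% of the calls were higher as deposited and 48.34% after the array medians were set equal, which moved the median of all genes by -0.11 and gave 801 higher and 856 lower. Without WT replicate 1 the counts were 852 and 285, and without both arrays that stood apart 622 and 172. The count of lower genes also fell to 203 without WT replicate 3, 207 without KO replicate 2 and 199 without KO replicate 5. Of the 622 and 172 genes, 599 and 142 were among the genes called with all arrays. Of the 963 higher genes 239 were above background in KO but not in WT, and 121 of the called genes were above it in neither group. Not above background means a group mean at or below the 95th percentile of olfactory and vomeronasal receptor genes (5.20 in WT and 5.02 in KO). Where 1 group is not above it, a difference is a lower limit, given as "at least" with the background in place of the mean.

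**Figure D2:**
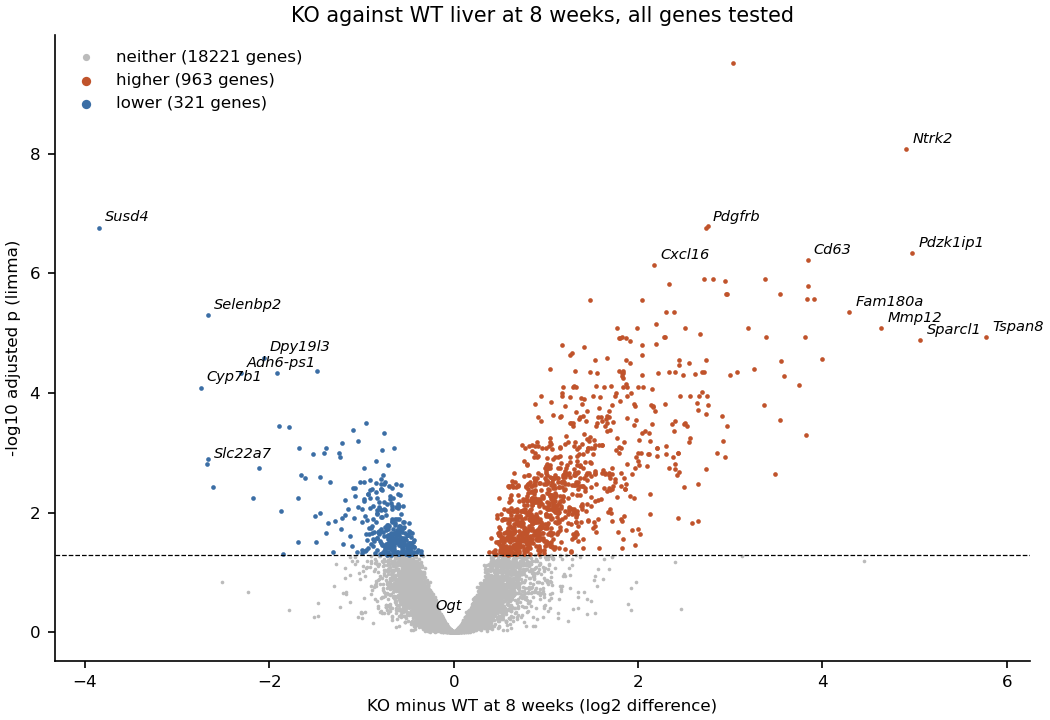
KO minus WT log2 difference against −log10 of the limma adjusted p for the 19505 genes at 8 weeks. The dashed line marks an adjusted p of 0.05. Of the called genes 963 lie to the right and 321 to the left, where Susd4 at -3.85 lies furthest out, and Ogt lies among the genes not called.

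The largest rise was that of Tspan8, which encodes a tetraspanin of epithelial cells. It read 4.45, 4.94, 5.01, 6.42 and 5.53 in WT and 11.19, 11.59, 9.28, 10.08 and 13.06 in KO, a difference of 5.77 (SE 0.67, adjusted p = 1.16e-05). The lowest KO array, replicate 3, lay well above the highest WT array, replicate 4. Of the calls with no overlap between groups, the next largest rises were Sparcl1 (5.06), a matricellular protein gene, Pdzk1ip1 (4.97), Ntrk2 (4.91), the receptor for BDNF, and Mmp12 (4.64, at least 4.29), the macrophage metalloelastase. Fam180a (4.29), the epithelial adhesion gene Epcam (4.00, at least 3.81), the proteoglycan gene Lum (3.91), Bicc1 (3.85), the tetraspanin gene Cd63 (3.84), Pkhd1 (3.83, at least 3.77) and the GABA receptor subunit gene Gabrp (3.82, at least 2.69) followed.

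The largest fall, meaning a lower signal in KO than in WT at this age, was that of Susd4, which encodes an inhibitor of complement. Susd4 read 10.42, 11.35, 11.19, 10.17 and 10.52 in WT and 7.34, 6.46, 5.77, 7.55 and 7.30 in KO (difference -3.85, SE 0.31, adjusted p = 1.70e-07). The groups were more than 2 units apart. Among called genes without overlap between the groups, and with Gm-number and Rik symbols passed over, it was followed by the oxysterol hydroxylase gene Cyp7b1 (-2.75), the organic anion transporter gene Slc22a7 (-2.67), the selenium-binding protein gene Selenbp2 (-2.67), Phlda1 (-2.61) and the pseudogene Adh6-ps1 (-2.31). Smaller falls were those of the calpain gene Capn8 (-2.18), the short-chain dehydrogenase gene Sdr9c7 (-2.11), Dpy19l3 (-2.06), the Rac exchange factor gene Tiam2 (-1.91), the sulfotransferase gene Sult5a1 and Rarres1 (-1.88). In KO Capn8 was not above background, and against the background its fall was at least 0.63 in size. WT replicates 2 and 3 (7.73 and 7.06) carried the WT mean of Capn8, and the other 3 WT arrays read 4.21 to 4.70. Sult5a1 was not above background in either group, so no size is given for it.

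Promoters of 17 of these 24 genes were in the RefSeq set (build GRCm38.p6), which covers 250 bases before and 50 after a start site. Each window was searched on both strands for AP-1 (TGANTCA), the NRF2 antioxidant element (TGAC, any 3 bases, then GC), TEAD (GGAATG) and the TATA box (TATAAA). The AP-1 and NRF2 letters can overlap. Windows are printed for 4 genes with a match before the start, each as the 250 bases before the start, with matches in capitals. They are a rise with AP-1 (Fam180a), the start of Mmp12 with AP-1, a fall with AP-1 (Capn8) and a fall with an NRF2 element and a TATA box (Sdr9c7).
Fam180a: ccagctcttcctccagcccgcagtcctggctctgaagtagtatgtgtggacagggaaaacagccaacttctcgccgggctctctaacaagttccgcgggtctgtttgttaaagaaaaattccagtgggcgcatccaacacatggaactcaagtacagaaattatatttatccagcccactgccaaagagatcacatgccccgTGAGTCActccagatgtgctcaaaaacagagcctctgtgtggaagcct
Mmp12: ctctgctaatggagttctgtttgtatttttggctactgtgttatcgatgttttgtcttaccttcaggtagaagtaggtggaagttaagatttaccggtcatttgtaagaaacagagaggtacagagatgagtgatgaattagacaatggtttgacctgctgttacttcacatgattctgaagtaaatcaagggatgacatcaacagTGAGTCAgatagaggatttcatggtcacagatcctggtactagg
Capn8: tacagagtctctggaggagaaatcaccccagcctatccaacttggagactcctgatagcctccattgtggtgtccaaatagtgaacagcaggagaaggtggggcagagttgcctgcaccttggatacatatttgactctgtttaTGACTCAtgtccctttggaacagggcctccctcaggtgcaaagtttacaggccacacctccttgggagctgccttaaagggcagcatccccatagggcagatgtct
Sdr9c7: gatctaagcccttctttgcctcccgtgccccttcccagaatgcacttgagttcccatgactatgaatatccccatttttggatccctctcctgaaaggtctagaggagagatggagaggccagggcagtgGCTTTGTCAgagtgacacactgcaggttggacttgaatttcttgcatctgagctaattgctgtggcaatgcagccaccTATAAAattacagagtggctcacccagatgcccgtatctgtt
These lie at chr6:35326142-35326391 for Fam180a (minus strand), chr9:7347124-7347373 for Mmp12, chr1:182564757-182565006 for Capn8 and chr10:127898285-127898534 for Sdr9c7, all 3 on the plus strand. AP-1 was found in 8.46% of the 969 promoters of genes called higher, 8.15% of the 319 of genes called lower, 7.15% of the 19143 of genes tested and 7.81% of all 32851. In the same order TEAD was found in 15.1%, 9.72%, 13.4% and 14.7%, the NRF2 element in 12.6%, 16%, 13.1% and 12.4%, and the TATA box in 9.60%, 11.3%, 12.3% and 13.6%. No test was made on these shares, and some genes have several windows.

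**Figure D3:**
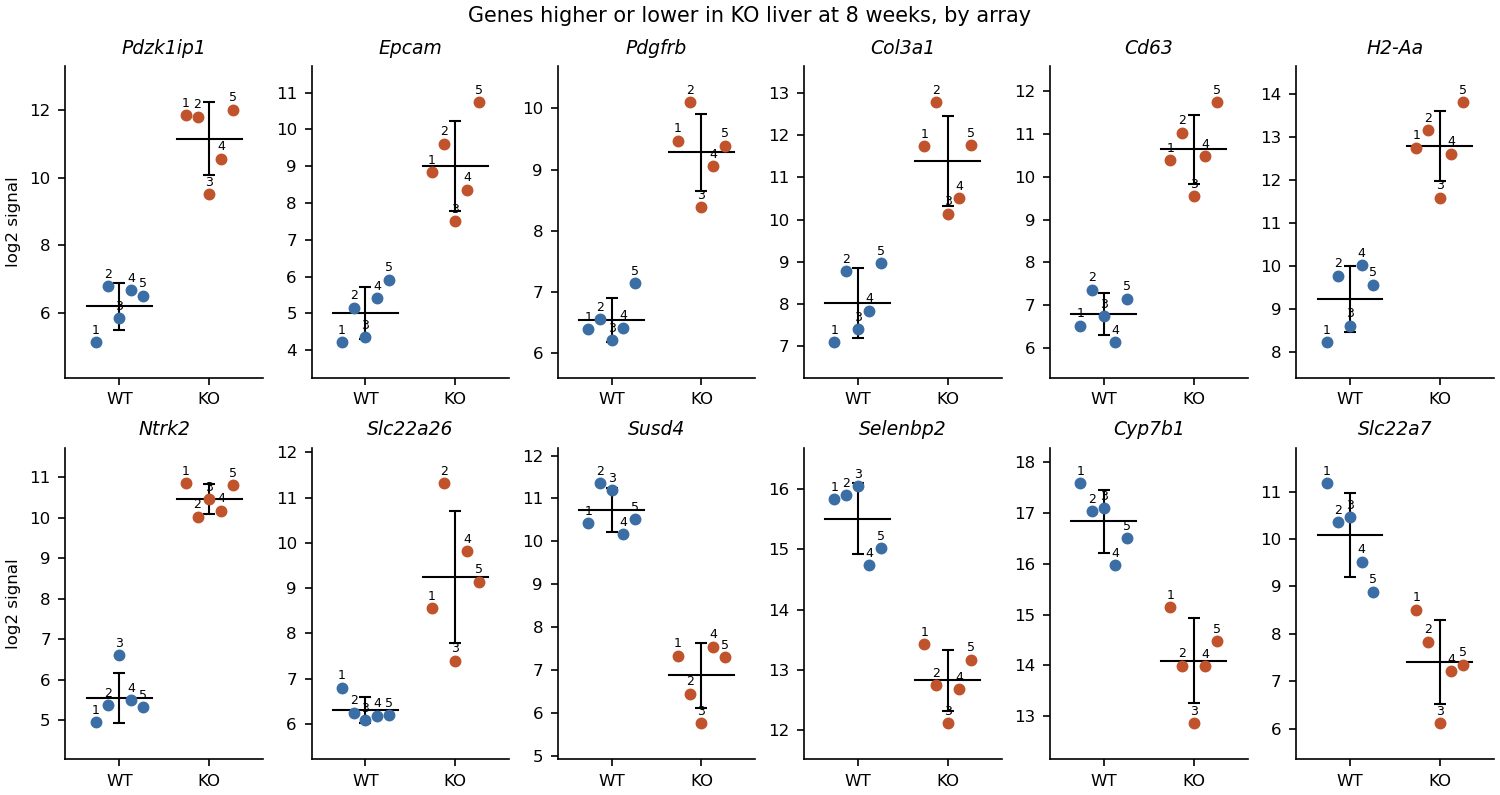
Log2 signal of 12 genes on each 8-week array. Each point is 1 array with its replicate number, and black lines show the group mean and SD (n = 5). The KO arrays lie wholly above or wholly below the WT arrays in each panel, and KO replicate 3 is the lowest KO array in 11 of the 12 panels.

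Most measured genes of bile duct cells were higher. Of 36 measured cholangiocyte and ductular genes 23 were higher and 0 lower, against 4.94% and 1.65% of all genes, and the median difference was 1.23. This list, like all the others here, was written with earlier results of these data known. It holds Tspan8, Pdzk1ip1, Epcam and Bicc1, which are among the largest rises. The list counts, here and below, are therefore not independent of these data. As deposited, all 36 differences were above 0, down to 0.02, which is less than the shift of 0.11 from setting the array medians equal. The mean over the 36 genes ran from 6.45 to 6.86 on the WT arrays and from 7.71 to 9.40 on the KO arrays. KO replicate 5 was highest and replicates 3 and 4 lowest. Without both arrays that stood apart 17 of the 36 were higher.

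Pdzk1ip1, a small membrane protein gene of epithelia, read 5.13, 6.79, 5.83, 6.67 and 6.50 in WT and 11.86, 11.81, 9.52, 10.56 and 12.02 in KO (difference 4.97, SE 0.43, adjusted p = 4.52e-07). Bicc1, an RNA-binding protein gene of renal and biliary tubules, read 6.85, 7.36, 7.27, 7.49 and 6.96 and 11.42, 12.12, 9.74, 9.93 and 11.96 (3.85, adjusted p = 1.62e-06). Pkhd1, which encodes fibrocystin of the bile duct cilium, read 5.15, 4.88, 5.13, 4.93 and 5.59 and 8.55, 9.78, 7.70, 8.41 and 10.38 (3.83, at least 3.77, adjusted p = 2.72e-06). Replicate 3 was the lowest KO array for all 3 genes, and none overlapped with WT. Epcam read 4.22, 5.15, 4.35, 5.41 and 5.91 and 8.83, 9.61, 7.50, 8.36 and 10.74 (adjusted p = 2.65e-05). The adhesion receptor gene Cd44 rose by 1.83 (adjusted p = 1.16e-05).

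The biliary keratins were also higher. Krt19 read 5.29, 5.23, 3.84, 5.42 and 5.63 in WT, not above background, and 6.87, 7.13, 6.05, 6.37 and 8.76 in KO (difference 1.95, at least 1.84, adjusted p = 0.0057). Krt7 read 5.63, 5.56, 5.25, 5.67 and 6.37 and 7.75, 8.45, 6.53, 7.14 and 10.26 (2.33, adjusted p = 0.00182). Neither overlapped between the groups, and KO replicate 5 was the highest array for both. Krt8, which hepatocytes also make, was 1.13 higher (adjusted p = 0.0206), a call lost without any 1 of WT replicates 2 and 3 and KO replicates 4 and 5 (adjusted p up to 0.0712). These keratins were chosen as standard duct markers after their values were seen. Sox9, the transcription factor of biliary progenitors, read 5.38, 7.38, 6.86, 6.49 and 7.45 and 9.17, 8.98, 7.94, 6.97 and 8.30 (1.56, adjusted p = 0.013), and the groups overlapped. The Sox9 call was lost without both arrays that stood apart (adjusted p = 0.074).

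Stellate cell, fibroblast and matrix genes were higher. Of 33 stellate cell and myofibroblast genes 14 were higher and 1 lower (median 0.88), and 13 and 0 without both arrays that stood apart. Of 36 matrix, protease and crosslinking genes 25 were higher and 0 lower (median 1.31), and 20 without both. Pdgfrb, the PDGF receptor of stellate cells and pericytes, read 6.39, 6.56, 6.21, 6.42 and 7.15 in WT and 9.47, 10.10, 8.39, 9.06 and 9.39 in KO (difference 2.74, SE 0.22, adjusted p = 1.70e-07). The highest WT array was more than 1 unit below the lowest KO array. Lum read 8.87, 10.18, 8.85, 9.64 and 9.88 and 14.33, 14.19, 11.75, 12.75 and 13.93 (adjusted p = 2.72e-06), and Sparcl1 read 5.40, 6.02, 6.46, 6.94 and 7.32 and 12.59, 12.43, 10.12, 10.23 and 12.07 (adjusted p = 1.31e-05). The decorin gene Dcn (1.53, or 0.62 with values held at 16, since all its KO arrays read above 16), the stellate cell globin gene Cygb (2.40) and the ligand gene Gas6 (3.07) were higher.

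Acta2 and Tagln, contractile genes of myofibroblasts, were not among the members called. Acta2, which encodes smooth muscle actin, read 6.54, 7.14, 6.11, 7.81 and 8.30 in WT and 6.53, 6.95, 6.16, 7.13 and 6.50 in KO, a difference of -0.53 that was not called (adjusted p = 0.68). Tagln, which encodes the actin-binding protein transgelin, had a difference of 0.23 (adjusted p = 0.7). This pair was named after its values were seen. The member called lower was Hhip, a hedgehog-binding protein gene (-0.89, adjusted p = 0.0332), and that call was lost without any 1 of 6 arrays (adjusted p up to 0.103). In bulk liver, more cells of a type and more RNA per cell cannot be told apart.

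Among 27 collagen chain genes 6 were higher and 0 lower, with a median of 0.09, and 11 of the 27 were not above background in either group. Col3a1, the type III chain, read 7.10, 8.78, 7.40, 7.84 and 8.97 in WT and 11.74, 12.78, 10.14, 10.50 and 11.77 in KO (difference 3.37, SE 0.50, adjusted p = 1.56e-04). Col1a2, a chain of type I collagen, read 5.34, 6.41, 5.03, 6.07 and 6.46 and 8.84, 9.94, 7.34, 7.97 and 9.50 (2.86, adjusted p = 9.99e-04). Both groups were apart for these chains, with KO replicate 3 lowest and replicate 2 highest. The microfibrillar chain gene Col6a3 (1.97) and Col1a1 (1.46, adjusted p = 0.0135) were higher, as were Col27a1 (0.77, at least 0.05) and the basement membrane chain gene Col4a2 (0.76). Without both arrays that stood apart 3 of the 27 were called. Col1a1 also lost its call without KO replicate 2 (adjusted p = 0.0503), and Col4a2 without WT replicate 1, KO replicate 2 or KO replicate 5 (up to 0.069) or with the 10 arrays at 8 weeks alone (0.0655). The median of the 27 was -0.02 with the array medians set equal.

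Among matrix proteases, the gelatinase gene Mmp2 was 3.81 higher (SE 0.44, adjusted p = 1.15e-05), from 5.88, 6.48, 5.86, 6.27 and 6.87 to 10.98, 11.24, 8.14, 9.29 and 10.77. KO replicate 3 was again the lowest of its group. Mmp12 read 5.22, 5.51, 4.21, 4.27 and 5.03 in WT, not above background, and 7.51, 10.35, 9.06, 11.23 and 9.29 in KO (adjusted p = 8.16e-06). Its order differed, since KO replicate 4 was highest and replicate 1 lowest. The plasminogen activator gene Plat (1.42, at least 0.75), the biglycan gene Bgn (2.04), the nidogen gene Nid1 (1.86) and the thrombospondin gene Thbs2 (2.44) rose.

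Genes of monocyte-derived and lipid-associated macrophages were higher, while few genes of resident Kupffer cells were called. Of 30 macrophage genes 21 were higher and 0 lower (median 1.02), and 16 were higher without both arrays that stood apart. Cd63 read 6.53, 7.37, 6.75, 6.15 and 7.16 in WT and 10.38, 11.02, 9.55, 10.47 and 11.73 in KO (difference 3.84, SE 0.34, adjusted p = 6.07e-07). Lyz2, which encodes lysozyme, read 9.69, 9.44, 9.19, 9.51 and 10.07 and 12.47, 12.51, 10.94, 11.91 and 12.04 (2.39, adjusted p = 4.40e-06). Both genes had the lowest KO value on replicate 3, above every WT array. The glycoprotein gene Gpnmb (1.67, at least 1.62), the cathepsin S gene Ctss (1.91) and the tetraspanin gene Cd9 (1.83) were higher.

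Of 15 Kupffer cell genes 1 was higher, the transporter gene Slc16a9 (1.09), and 1 lower, the haemoglobin scavenger receptor gene Cd163 (-1.69, adjusted p = 0.00577). Cd163 read 8.27, 6.76, 7.35, 6.75 and 5.92 in WT and 5.82, 4.99, 4.79, 5.31 and 5.68 in KO, and the highest WT array was replicate 1. The median of the list was -0.04, and 8 of the 15 had an unadjusted p below 0.05 by limma. The share of all genes at an unadjusted p below 0.05 is not given here. Such counts, here and below, therefore have no share of all genes to be set against. With the array medians set equal, or without KO replicate 4, 5 of the 15 were lower. For the defining markers, chosen after their values were seen, the differences were -0.68 for Clec4f (adjusted p = 0.105), -0.76 for Timd4 (adjusted p = 0.0658) and -0.39 for Vsig4 (adjusted p = 0.48). Neutrophil genes had 0 of 13 members called by limma, and 4 with an unadjusted p below 0.05. T, NK and B cell genes had 2 of 25 higher and 1 lower, and 19 of the 25 were not above background in either group. The immunoglobulin joining chain gene Jchain was 1.82 higher (at least 0.74). It read 4.02, 4.32, 3.69, 4.23 and 4.34 in WT, not above background, and 5.64, 4.51, 6.20, 4.95 and 8.40 in KO, highest on replicate 5, without which the difference was 1.21. With the 10 arrays at 8 weeks alone Jchain was not called (adjusted p = 0.068) and 0 of the 25 were higher. The T cell coreceptor gene Cd4 fell by 0.79 (adjusted p = 0.00404).

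MHC class II genes were higher. Of 18 antigen presentation genes 6 were higher and 0 lower (median 0.39), and 6 also without both arrays that stood apart. H2-Aa, a class II alpha chain, read 8.24, 9.78, 8.62, 10.02 and 9.57 in WT and 12.76, 13.17, 11.60, 12.62 and 13.82 in KO (difference 3.55, SE 0.45, adjusted p = 2.95e-05). H2-Ab1 (2.96) and H2-Eb1 (2.71), the beta chains, and H2-DMb1 (2.74) and H2-DMa (1.04, at least 0.03), which load peptides, were higher as well. H2-DMa lost its call without WT replicate 2, KO replicate 2 or KO replicate 5 (adjusted p up to 0.0649).

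Of 39 chemokine, cytokine and adhesion genes 14 were higher and 0 lower (median 0.46), and 9 higher and 1 lower without both arrays that stood apart. Cxcl16, a membrane-bound chemokine and scavenger receptor, read 8.46, 8.30, 8.38, 8.44 and 8.59 in WT and 11.01, 10.82, 9.94, 10.30 and 10.98 in KO (2.18, adjusted p = 7.27e-07). The WT arrays spanned 8.30 to 8.59. Vcam1, an adhesion molecule for leukocytes, read 7.37, 7.06, 7.43, 7.02 and 7.38 and 9.74, 9.93, 9.47, 9.44 and 11.26 (2.72, adjusted p = 1.23e-06). The NF-kB inhibitor gene Tnfaip3 (1.45), the leukocyte adhesion gene Icam1 (0.70) and the endotoxin receptor gene Tlr4 (1.53) had higher signals too. Interferon-stimulated genes had 1 of 36 members higher, Ifi27 (1.70, adjusted p = 0.00863), and a median of 0.13. At 4 weeks 27 of the same 36 were higher, and for 14 of them the KO effect at 8 weeks was lower than at 4 weeks by the interaction test.

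**Figure D4:**
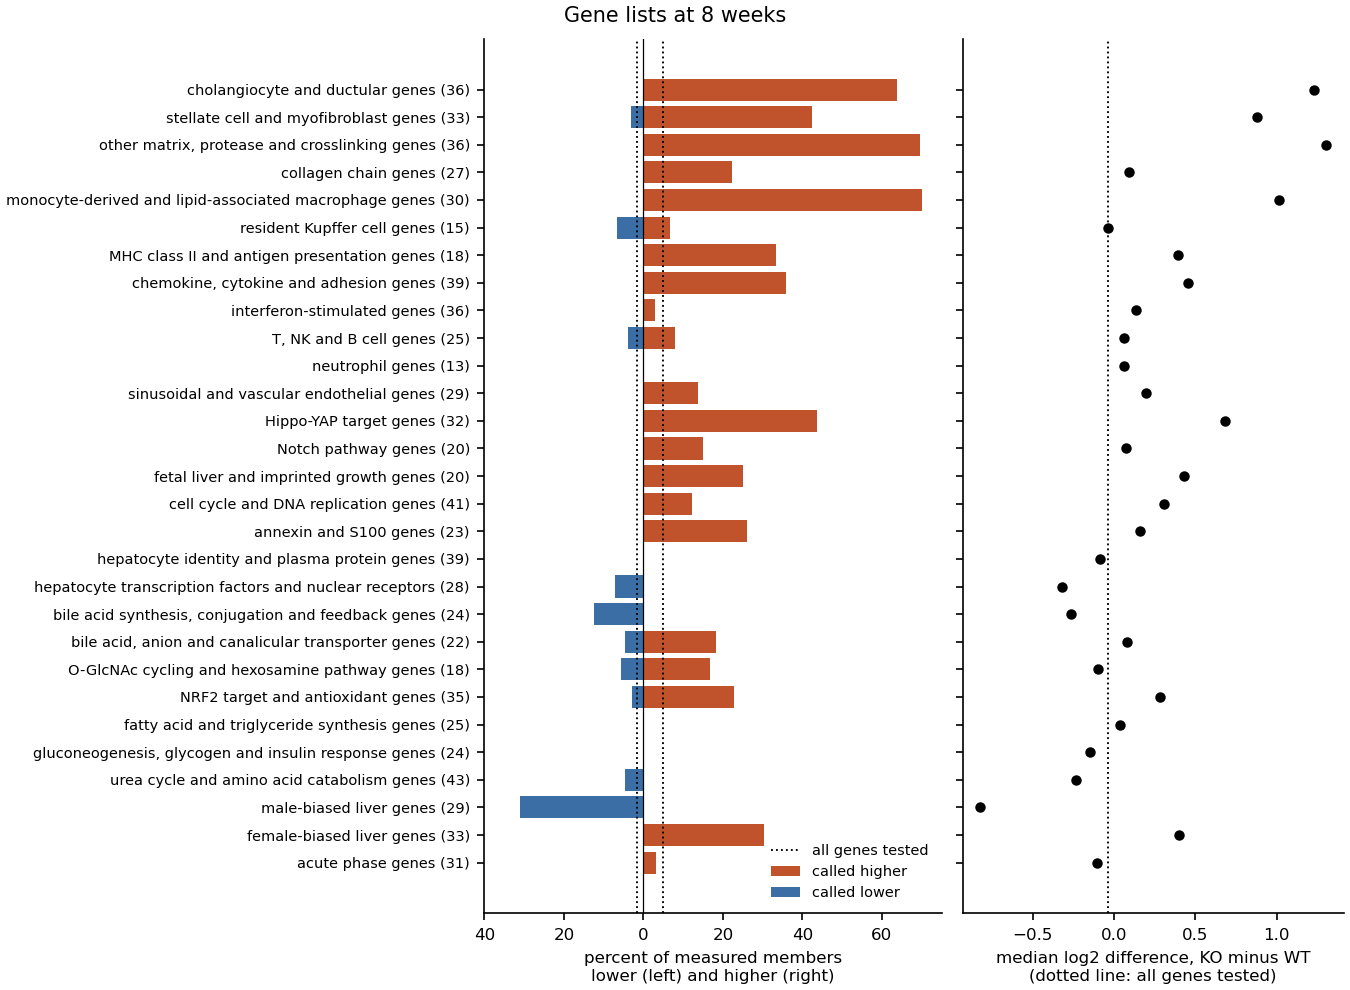
Percent of measured members called higher (right, orange) and lower (left, blue) for 29 gene lists at 8 weeks, with the number measured in parentheses, and the median log2 difference of the members. Dotted lines give the same for all genes tested (4.94%, 1.65% and a median of -0.04). Ductular, matrix and macrophage lists have the longest bars to the right and male-biased genes the longest to the left. The lists were written with earlier results of these data known, so their shares are not independent of these data.

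Some genes listed as targets of the Hippo-YAP pathway, which regulates organ growth, were called higher. Of the 32 genes on this list 14 were higher and 0 lower (median 0.68), and 11 without both arrays that stood apart. Rbms3, an RNA-binding protein gene, was 2.44 higher, the TEAD cofactor gene Vgll3 1.32 (at least 1.14), the receptor kinase gene Axl 1.76 and the TEAD factor gene Tead1 1.27. The list thus holds a TEAD factor and a TEAD cofactor beside target genes, and its count is not one of targets alone. Ankrd1, a direct YAP target, read 5.42, 5.21, 5.45, 5.84 and 6.46 in WT and 7.99, 8.30, 7.08, 6.27 and 7.79 in KO (1.81, adjusted p = 0.0022). WT replicate 5 and KO replicate 4 overlapped. Of 20 Notch pathway genes 3 were higher and 0 lower (median 0.07, or -0.04 with the array medians set equal). They were the ligand genes Jag1 (1.21, adjusted p = 0.0022) and Dll4 (0.89, adjusted p = 0.0141), and Sox9. Jag1 alone kept its call without both arrays that stood apart. The receptor gene Notch2 had a difference of 0.33 (adjusted p = 0.178).

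Of 41 cell cycle and replication genes 5 were higher and 0 lower (median 0.30), and 3 without both arrays that stood apart. The kinase gene Cdk4 read 10.02, 10.12, 10.21, 9.91 and 9.90 in WT and 10.67, 11.09, 10.68, 10.61 and 11.69 in KO (0.92, adjusted p = 0.00214). Its groups were apart. The proliferation marker gene Mki67 was 1.78 higher (adjusted p = 0.0206), and lost its call without any 1 of WT replicate 1, WT replicate 4, KO replicate 2 or KO replicate 5 (adjusted p up to 0.0684). Of 20 fetal liver and imprinted growth genes 5 were higher and 0 lower, 2 without KO replicate 5, and 3 without WT replicate 2 or without KO replicate 2. Gpc3, the oncofetal proteoglycan glypican 3, read 4.08, 4.22, 4.27, 4.63 and 4.68 in WT, not above background, and 6.96, 6.88, 4.72, 5.83 and 7.65 in KO (2.03, at least 1.21, adjusted p = 0.001). Afp, the fetal albumin gene, read 6.64, 6.46, 6.31, 6.08 and 6.63 and 6.34, 6.37, 6.05, 6.67 and 7.82, with KO replicate 5 highest, and was not called (adjusted p = 0.763).

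Annexins and their S100 partners, calcium-dependent membrane-binding proteins, had 6 of 23 members higher and 0 lower (median 0.16). Anxa13, an epithelial annexin gene, read 5.37, 5.32, 5.36, 5.12 and 5.49 in WT and 8.80, 8.80, 7.61, 7.20 and 9.01 in KO (2.95, adjusted p = 2.24e-06). Its WT arrays spanned 5.12 to 5.49. Anxa2 (2.73), Anxa5 (2.15), S100a11 (3.53) and Anxa3 (2.13) were higher. Of 29 endothelial genes 4 were higher and 0 lower, and 2 without WT replicate 1, without WT replicate 3 or with the medians set equal. The stem and vascular marker gene Cd34 was 2.65 higher (adjusted p = 0.00328) and the endoglin gene Eng 1.10 (adjusted p = 0.00237). Skeletal muscle, pancreatic acinar, erythroid and mesothelial lists, which mark other tissues a liver sample could hold, had 0 of 20, 0 of 15, 0 of 6 and 0 of 12 members called by limma, and 0, 1, 3 and 0 with an unadjusted p below 0.05.

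**Figure D5:**
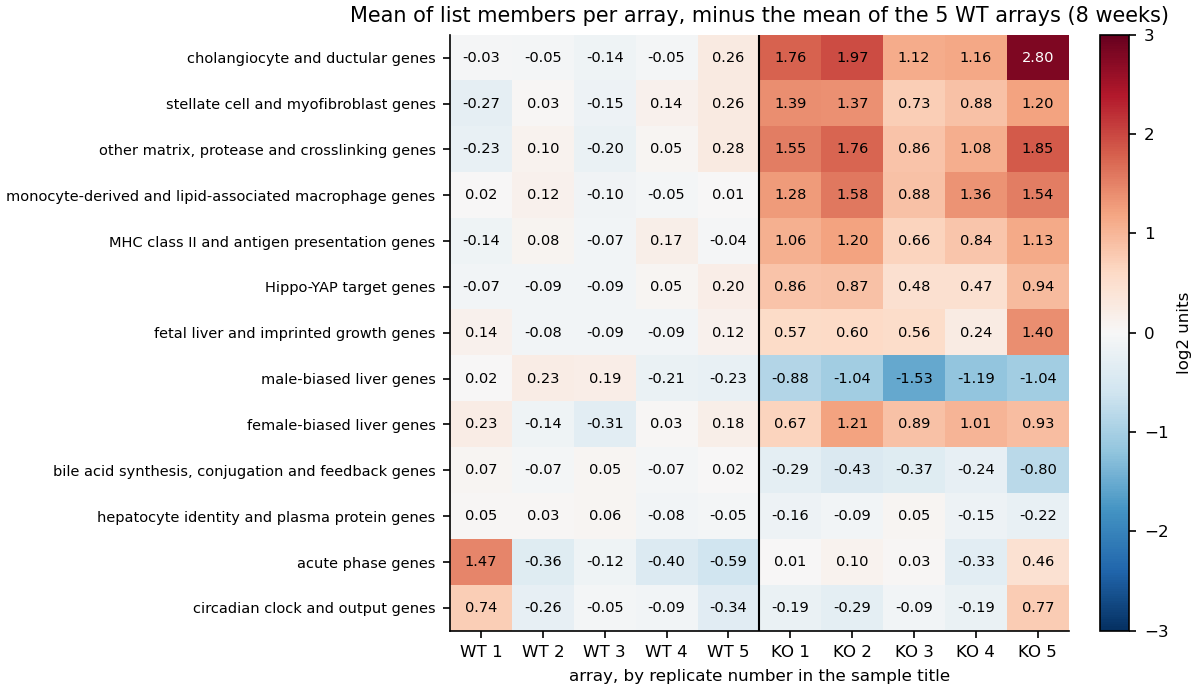
Mean log2 signal of the members of 13 lists on each 8-week array, minus the mean of the 5 WT arrays. Ductular genes are highest on KO replicate 5. The ductular, stellate, matrix and macrophage lists are lowest among the KO arrays on replicate 3, where male-biased genes are lowest too. The acute phase mean of WT replicate 1 and the clock means of WT replicate 1 and KO replicate 5 stand apart.

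No hepatocyte identity gene was called. Of 39 hepatocyte identity and plasma protein genes 0 were called in either direction by limma (median -0.09), against 4.94% higher and 1.65% lower of all genes. At these shares few calls would be looked for in a list of this size. Of the differences 29 were below 0 and 9 above. In all, 4 genes had an unadjusted p below 0.05, and 2 were lower with the array medians set equal. The shares of all genes given above are at the adjusted p and do not apply to the unadjusted one. The mean of the 39 genes ran from 16.76 to 16.89 on WT arrays and from 16.62 to 16.89 on KO arrays. Albumin, Alb, read 19.80, 19.73, 19.74, 19.77 and 19.69 in WT and 19.68, 19.71, 19.70, 19.57 and 19.72 in KO, which checks the tissue label. The values lie above 16, the ceiling of a 16-bit scanner, and the sources used here do not say how they arose, so differences there may be altered. Of 28 hepatocyte transcription factor and nuclear receptor genes 2 were lower, Cebpa (-0.77, adjusted p = 0.0349) and the coactivator gene Ppargc1b (-0.75, adjusted p = 0.0243), and 25 of the 28 differences were below 0 (median -0.32). With the array medians set equal 5 were lower. Cebpa, a regulator of hepatocyte genes, read 12.35, 12.15, 12.26, 11.92 and 12.34 and 11.43, 11.26, 11.39, 11.82 and 11.26. Its groups did not overlap. The Cebpa call was lost without any 1 of 8 of the 10 arrays (adjusted p up to 0.0881) and that of Ppargc1b without WT replicate 2, WT replicate 3 or KO replicate 2 (up to 0.0845). Hnf4a read 13.37, 13.71, 14.66, 13.40 and 13.93 and 13.52, 13.69, 13.74, 12.89 and 13.68, a difference of -0.31 that was not called.

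Few genes of intermediary metabolism were called. With all arrays as deposited, no member was called among 25 fatty acid and triglyceride synthesis genes, 24 gluconeogenesis and glycogen genes, 19 lipid droplet genes, 21 periportal genes and 31 unfolded protein response genes. Of these 120 genes, 24 had an unadjusted p below 0.05 by limma, a threshold at which the share of all genes is not given here. Of the 19 lipid droplet genes 4 were lower with the array medians set equal, and 3 with quantile normalization or with the 10 arrays at 8 weeks alone. Of the 31 unfolded protein response genes 2 were lower with the medians set equal, of the 21 periportal genes 2 were higher with the replicate number as a block, and of the 25 synthesis genes 2 were higher without WT replicate 4. Of 43 urea cycle and amino acid genes 2 were lower, and 4 with the medians set equal. Kmo, the kynurenine monooxygenase gene, read 14.98, 14.35, 14.35, 14.39 and 14.19 in WT and 13.74, 13.38, 13.68, 13.64 and 13.58 in KO (-0.85, adjusted p = 0.00138), with the groups apart, and Bhmt, a homocysteine methyltransferase gene, fell by 0.60 (adjusted p = 0.00712), with all 10 arrays above 16, where no difference is left with values held at 16. Of 35 respiratory chain genes 1 was lower (median -0.26). It was Ndufb3, a complex I subunit gene (-0.90), and its call was lost without WT replicate 3 (adjusted p = 0.063) and with the 10 arrays at 8 weeks alone (0.053), while 6 were lower without KO replicate 3 and 4 with the medians set equal.

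The remaining metabolic and regulatory lists had few calls. Of 26 pericentral genes 2 were higher and 1 lower, with none called by limma without both arrays that stood apart and 3 lower with the array medians set equal. Of 27 fatty acid oxidation and PPARalpha target genes 1 was higher and 1 lower. None of the 27 was called without any 1 of WT replicates 1, 2 and 4 and KO replicates 3 and 5, or without both arrays that stood apart. Of 37 xenobiotic P450 genes 0 were higher and 2 lower, and 0 were lower without any 1 of 6 arrays (WT replicates 1 to 4, KO replicates 1 and 5), with values held at 16, with quantile normalization or with the 10 arrays at 8 weeks alone. In turn 2 were higher without WT replicate 1 or KO replicate 3, and 1 with quantile normalization or with the 10 arrays at 8 weeks alone. Of 20 cholesterol synthesis and uptake genes 1 was lower (median -0.29), and 3 with the medians set equal or without KO replicate 4. None of the 20 was called without any 1 of WT replicates 1, 2 and 5 and KO replicates 2 and 5. The same held without both arrays that stood apart and with quantile normalization. Of 20 growth hormone and IGF axis genes 2 were higher. The 19 clock genes had 0 called by limma and 2 with an unadjusted p below 0.05, with the 2 arrays that stood apart falling in opposite groups. Of 26 iron handling and metallothionein genes 2 were higher, and 4 with values held at 16 or without KO replicate 4. Lists with more calls were cell death and p53 target genes, with 6 of 35 higher and 0 lower (3 without both arrays that stood apart), and liver tumour-associated and oncofetal genes, some of them also on other lists, with 7 of 23 higher and 0 lower (6 without both).

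In bile acid synthesis, Cyp7b1, Cyp8b1 and Baat were lower. They were 3 of 24 genes, with 0 higher (median -0.27). Cyp7b1 is also on the list of male-biased genes described below, so its fall counts in both lists. Without both arrays that stood apart 2 were lower, and with the array medians set equal 5. Cyp7b1, which hydroxylates oxysterols in the alternative pathway, read 17.58, 17.04, 17.10, 15.97 and 16.50 in WT and 15.15, 13.99, 12.86, 13.98 and 14.48 in KO (difference -2.75, SE 0.38, adjusted p = 8.08e-05). No arrays overlapped, and KO replicate 3 was lowest. Cyp27a1, which opens the same pathway, had a difference of -0.25 that was not called (adjusted p = 0.503). Part of the Cyp7b1 signal lies above 16, and with values held at 16 its difference was -1.90 (adjusted p = 0.00293). Cyp8b1, the sterol 12-alpha-hydroxylase gene, read 12.50, 12.72, 12.64, 11.72 and 12.42 and 11.42, 10.45, 10.05, 12.18 and 10.36 (-1.51, adjusted p = 0.0113), with KO replicate 4 inside the WT range, and was not called without both arrays that stood apart (adjusted p = 0.0705). Baat, which conjugates bile acids, fell by 0.83 (adjusted p = 0.0106). Cyp7a1, the rate-limiting enzyme of the classical pathway, read 17.23, 14.76, 14.22, 14.87 and 15.64 and 15.41, 15.32, 15.49, 15.62 and 14.57 and was not called (adjusted p = 0.967). WT replicate 1 was its highest array. The receptor gene Nr1h4, which encodes FXR, had a difference of -0.26 (adjusted p = 0.575), and its target gene Nr0b2, which encodes SHP, one of -0.78 (adjusted p = 0.475), with KO replicate 5 at 7.92 and the other KO arrays from 10.69 to 12.13.

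Of 22 transporters of bile acids, anions and the canalicular membrane 4 were higher and 1 lower, and 2 and 1 without both arrays that stood apart or without WT replicate 3, WT replicate 5 or KO replicate 5. Abcb1a, which encodes a multidrug efflux pump, read 5.64, 6.53, 6.19, 7.52 and 6.21 in WT and 8.44, 9.24, 8.82, 8.56 and 9.78 in KO (2.55, adjusted p = 3.12e-05). Its paralog Abcb1b was 1.38 higher (at least 1.21). Slc22a7, which encodes the basolateral anion transporter OAT2, read 11.17, 10.35, 10.46, 9.52 and 8.89 and 8.51, 7.84, 6.12, 7.21 and 7.35 (-2.67, adjusted p = 0.00155). The lowest WT array was 0.38 above the highest KO array. The bile salt export pump gene Abcb11 had a difference of -0.45 (adjusted p = 0.167) and the uptake transporter gene Slc10a1 one of -0.27 (adjusted p = 0.581).

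Among sex-biased liver genes, male-biased members were called lower and female-biased members higher. Of 29 male-biased genes 0 were higher and 9 lower (median -0.83), and of 33 female-biased genes 10 were higher and 0 lower (median 0.40). Without both arrays that stood apart the counts were 7 lower and 10 higher. The male-biased genes called lower include Cyp7b1, already counted among the bile acid genes. Some members, among them Susd4, Selenbp2, Capn8, Sdr9c7 and Ntrk2, were placed on these lists with earlier results of these data known, so the counts are not independent of them. The mean of the male-biased genes ran from 14.42 to 14.88 on WT arrays and from 13.12 to 13.77 on KO arrays.

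Selenbp2 read 15.82, 15.89, 16.04, 14.73 and 15.02 in WT and 13.43, 12.75, 12.12, 12.68 and 13.17 in KO (difference -2.67, SE 0.29, adjusted p = 4.93e-06). The complement gene C8b (-0.77), the transporter gene Slc22a28 (-0.91), the glucuronosyltransferase gene Ugt2b38 (-1.29) and Moxd1 (-1.36) were lower. C8b lost its call without WT replicate 1, WT replicate 3 or KO replicate 5 (adjusted p up to 0.0598), Moxd1 without WT replicate 3 (0.0522) or with the 10 arrays at 8 weeks alone (0.0556), and Ugt2b38 without both arrays that stood apart (0.0604). Hsd3b5, a male-specific steroid dehydrogenase gene chosen after its values were seen, read 16.02, 16.65, 16.32, 16.32 and 16.75 and 15.12, 14.74, 11.99, 13.88 and 13.79. Its groups did not overlap, but the difference of -2.51 was not called with all 20 arrays in the model (adjusted p = 0.145) and was called with the 10 arrays at 8 weeks alone (adjusted p = 0.00418). In that fit 13 of the 29 male-biased genes were lower.

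Among female-biased genes, the transporter genes Slc22a26 and Slc22a27 were higher. Slc22a26 read 6.80, 6.25, 6.08, 6.18 and 6.20 in WT and 8.55, 11.31, 7.40, 9.82 and 9.14 in KO (2.94, adjusted p = 0.00116), and KO replicates 2 and 3 lay furthest apart. Slc22a27 was 2.29 higher (at least 1.39). Abcd2, a peroxisomal fatty acid transporter gene, read 6.89, 6.55, 6.07, 7.15 and 8.37 and 8.57, 9.84, 10.70, 9.82 and 9.35 (2.65, adjusted p = 1.88e-04). The lipoprotein lipase gene Lpl (2.20) and the magnesium transporter gene Nipal1 (1.66) rose. Lpl is also on the macrophage list, so its rise counts in both lists. Cyp2b9, a female-biased P450 gene, read 4.35, 4.37, 3.32, 4.71 and 5.22 and 5.73, 9.01, 5.60, 9.14 and 4.79. It was high on KO replicates 2 and 4 and was not called (adjusted p = 0.401), and it was chosen after its values were seen.

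Ntrk2 had the second smallest adjusted p of all genes. It read 4.96, 5.38, 6.61, 5.50 and 5.33 in WT and 10.85, 10.03, 10.47, 10.18 and 10.80 in KO (difference 4.91, SE 0.32, adjusted p = 8.23e-09), and the KO arrays spanned under 1 unit. Its ligand gene Bdnf read 5.57, 5.84, 4.55, 5.95 and 5.14 and 4.54, 5.28, 4.46, 5.32 and 4.89 and was not called (adjusted p = 0.265). Of the 9 measured neurotrophin genes Ntrk2 was higher and 1 lower, the sorting receptor gene Sorcs1 (adjusted p = 0.018), which reached the background in neither group and lost its call without WT replicate 4 or KO replicate 1 (adjusted p up to 0.0586).

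A few NRF2 targets and hexosamine pathway genes were called. Of 35 NRF2 target and antioxidant genes 8 were higher and 1 lower (median 0.28), and 5 higher without WT replicate 1. With the array medians set equal, and with the 10 arrays at 8 weeks alone, 6 were higher and 4 lower. The glutathione transferase gene Gstm3 read 12.81, 13.55, 13.32, 13.73 and 14.02 in WT and 14.99, 15.06, 15.58, 15.07 and 15.93 in KO (1.84, adjusted p = 7.85e-05), with the groups apart. Gstm2 (1.10) and the quinone reductase gene Nqo1 (1.03) were higher. Probes of near-identical Gstm genes cannot be told apart with certainty. Of 18 O-GlcNAc and hexosamine genes 3 were higher and 1 lower, and 3 lower with the medians set equal. Hk1, a hexokinase isoform low in normal hepatocytes, was 1.06 higher (adjusted p = 0.00308), and Gfpt2, an isoform of the rate-limiting enzyme of the pathway, 1.13 (adjusted p = 0.0101). Uap1l1 was 1.01 higher, and Uap1, which makes UDP-GlcNAc, fell by 0.45 (adjusted p = 0.0475). The Uap1 call was lost in 12 of 18 alternatives, that of Uap1l1 without WT replicate 4 or KO replicate 5 (adjusted p up to 0.0527), and without both arrays that stood apart Hk1 alone was higher.

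The KO effect at 8 weeks differed from that at 4 weeks for 595 genes, of which 399 were higher at 8 weeks (2.05% of genes tested) and 196 lower (1%). Without KO replicate 1 the 595 became 385. The ages share no arrays. Of the 963 genes higher at 8 weeks 200 were also higher at 4 weeks, 20.8% of the first list and 21.8% of the 917 (4.70% of genes tested) of the second. Of the 321 lower genes 96 were also lower at 4 weeks, 29.9% and 8.99% of the 1068 (5.48%). The transporter gene Slc22a26 had a difference of -3.57 at 4 weeks and 2.94 at 8 weeks (interaction 6.51, adjusted p = 6.72e-05). The duct gene Pkhd1 had -0.11 and 3.83 (interaction 3.93, adjusted p = 5.12e-04), and Pdgfrb -0.08 and 2.74 (interaction 2.82, adjusted p = 5.41e-05). Susd4 had 0.01 and -3.85 (interaction -3.86, adjusted p = 6.72e-05). From 4 to 8 weeks its group mean went from 5.95 to 10.73 in WT and from 5.96 to 6.88 in KO. In the same order the means were 11.70 to 15.50 and 12.71 to 12.83 for Selenbp2, and 9.35 to 16.84 and 9.65 to 14.09 for Cyp7b1. For Slc22a7 they were 9.95 to 10.08 and 8.92 to 7.41. Col3a1, higher in KO at 8 weeks, had 11.40 to 8.02 and 12.25 to 11.39. Cd63 and Mmp12 were called higher at both ages (3.02 and 6.12 at 4 weeks), and their interactions were not called. Of the 36 ductular genes 12 had a higher effect at 8 weeks than at 4 weeks by this test, as did 17 of the 33 female-biased genes.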

How the data were processed

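Total RNA of 20 mouse livers was measured on Clariom S arrays. The deposited values are log2 signals that the authors made with Affymetrix Expression Console and RMA, per the submitters' processing notes. No versions of these are known here. Precision is limited by the number of arrays. The lowest deposited log2 value was 2.32 and the highest 19.85, and each array had between 254 and 288 features above 16. Of 22206 features 19572 carried 1 symbol. For the 55 symbols with several features the brightest feature on average was used, leaving 19505 genes.

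limma 3.58.1 in R 4.3.3 fitted 4 group means over 20 arrays, with Benjamini-Hochberg adjustment over 19505 genes and a threshold of 0.05. The spread is therefore shared with the 4-week arrays. The fit was tested on simulated data with independent noise for each gene and array. Shifts shared by whole arrays, as seen here, were not simulated, so the calls were not checked against them. The members and the 47 lists (1197 genes) were chosen with earlier results of these data known. Named are Ogt, the 12 largest called rises and falls without overlap between groups (without Gm-number and Rik symbols) and, per list, up to 6 called members of smallest adjusted p, filled to 3. Any member of the collagen, Notch, neurotrophin, O-GlcNAc, bile acid and hepatocyte transcription factor lists may be named, and of the differences between ages the 5 largest each way. Genes outside this rule are stated to be chosen after their values were seen, or serve as context for a list. The alternatives were scaling, filtering, a value ceiling, the model and leaving out arrays.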

Additional observations from a re-analysis of the deposited data

Results flagged for a closer look

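Among 274 combinations of a named gene and an 8-week group, 22 held an array whose gap to the nearest of the other 4, divided by the range of the group, was above 0.71. Chance alone marks about 1 in 20 groups. Of the 22, 9 were WT replicate 1 and 6 were KO replicate 5. The named genes include Dbp, Arntl, Mt2 and Lcn2, chosen after their values on these arrays were seen. The counts therefore depend on that choice and are no test against chance.

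WT replicate 1 lay alone for the clock genes Dbp (15.19) and Arntl (6.11), and for Lcn2 (15.72) and Mt2 (17.65). It also lay alone for Kmo (14.98), Slc22a26 (6.80), Gas6 (7.52), Col4a2 (5.50) and Flna (6.98). KO replicate 5 lay alone for Dbp (15.65), Arntl (7.04), Lcn2 (14.37), the leukocyte adhesion gene Vcam1 (11.26) and the bile acid genes Baat (12.48) and Cyp7a1 (14.57).

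The other arrays that lay alone were KO replicate 4 for Alb (19.57) and Hnf4a (12.89), KO replicate 3 for Tagln (6.11), WT replicate 3 for Cd4 (7.79) and Krt19 (3.84), WT replicate 2 for Plat (4.04) and WT replicate 5 for Vsig4 (8.68).

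For 46 named genes the KO effect differed between the ages by limma's interaction test at an adjusted p below 0.05. The value for each is the KO minus WT log2 difference at 8 weeks less that at 4 weeks. For Ogt it was 1.16, since the KO minus WT difference was -1.43 at 4 weeks and -0.27 at 8 weeks.

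Over whole lists, 12 of 36 ductular genes had a higher effect at 8 weeks and 1 a lower one, 7 of 33 stellate cell genes a higher and 0 a lower one, and 12 of 36 matrix genes a higher and 1 a lower one. The named duct and epithelial genes that passed had 4.16 for Pdzk1ip1, 3.93 for Pkhd1, 3.62 for Epcam, 2.73 for Bicc1, 2.21 for Krt19 and 2.21 for Anxa13. The named stellate cell and matrix genes that passed had 4.11 for Sparcl1, 3.52 for Mmp2, 3.16 for Lum, 2.82 for Pdgfrb, 2.35 for Gas6, 2.07 for Cygb, 2.06 for Thbs2, 1.65 for Bgn, 1.08 for Plat and 1.04 for Dcn.

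Among the named macrophage, adhesion and signalling genes that passed, the value was 2.10 for Lyz2, 1.70 for Tlr4, 1.34 for Vcam1, 1.12 for Cxcl16, 1.34 for Dll4, 1.30 for Eng, 2.49 for Rbms3 and 0.94 for Vgll3. The T cell gene Cd4 had -1.01 and the fetal gene Afp -2.31, a lower effect at 8 weeks.

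Among genes with sex-biased expression, where 17 of 33 female-biased genes had a higher and 0 a lower effect and 1 and 8 of 29 male-biased ones did, it was 6.51 for Slc22a26, 3.71 for Abcd2, 3.42 for Slc22a27, 2.45 for Nipal1, 2.44 for Ntrk2, 2.38 for Lpl and 1.17 for Slc22a28, and the falls were -3.86 for Susd4 and -3.68 for Selenbp2. Of the remaining genes, Fam180a had 3.98, Gldn 3.07, Tbx20 2.45, Gdf10 2.35, Myof 2.06 and Flna 1.66, while Cyp7b1 had -3.05, Dpy19l3 -2.76, Tiam2 -1.33 and Kmo -0.84.

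Outside the genes with a symbol, 98 of the 2634 features without one were called higher in KO at 8 weeks and 32 lower.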

How the results depend on the processing

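Ogt kept its sign and missed the threshold in all 18 alternatives run. Counts of higher genes kept within 1.5 times in all alternatives that kept at least 9 of the 10 arrays. Setting array medians equal gave 856 lower genes, and repeating the quantile normalization gave 921 higher and 457 lower. Leaving out 1 array gave 761 to 1108 higher, 199 to 332 lower and 385 to 747 genes with an effect that differed between the ages. Without WT replicate 1 and KO replicate 5, an alternative chosen after seeing the data, 622 were higher, 172 lower and 400 differed between the ages. Of 112 named genes called, 90 kept direction and call in every alternative and none reversed. The difference of 4 uncalled genes changed sign. Leaving out 1 array gave -0.067 to 0.376 for Afp, -0.343 to 0.410 for Cyp7a1, -0.605 to 1.04 for Arntl and -0.785 to 2.06 for Dbp, and leaving out both arrays gave -0.013 for Afp and 0.588 for Cyp7a1. Cyp7a1 was at 0.024 with quantile normalization and 0.184 with values held at 16. The causes were not tested. Same-numbered KO and WT arrays had deviations from their group means that correlated between -0.18 and 0.14 across genes, so the numbers are not taken as pairs. With the replicate number as a block, 955 were higher, 266 lower and 533 differed between the ages, and Ogt stayed at -0.27 (adjusted p = 0.438). Signals not above background limit the size of many differences.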

Other observations

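The smallest limma adjusted p of all 19505 genes at 8 weeks was that of Gldn, which encodes gliomedin, a protein of the nodes of Ranvier. Gldn was on no list and was chosen, like the other genes here, after its values were seen. It read 3.94, 3.91, 3.82, 3.60 and 3.72 in WT, not above background, and 6.64, 6.28, 7.13, 6.76 and 7.32 in KO (difference 3.03, at least 1.63, SE 0.16, adjusted p = 3.05e-10). The difference at 4 weeks was -0.04, and the interaction with age was 3.07 (adjusted p = 1.95e-07). Tbx20, a T-box transcription factor gene best known from heart, read 6.09, 6.72, 6.02, 6.82 and 6.10 in WT and 9.50, 9.23, 8.62, 8.69 and 9.49 in KO (2.76, adjusted p = 1.64e-07). Gdf10, a ligand gene of the TGF-beta superfamily, read 7.71, 7.13, 6.64, 7.02 and 6.83 and 10.95, 10.40, 9.09, 9.90 and 9.69 (2.94, adjusted p = 1.32e-06). All 3 genes had KO arrays wholly above the WT arrays.

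A further 2 genes outside the lists were chosen in the same way, and stand for no group. Myof, which encodes the membrane repair protein myoferlin, read 5.05, 5.55, 5.14, 5.47 and 5.02 in WT and 8.38, 9.19, 7.33, 8.47 and 9.73 in KO (3.37, adjusted p = 1.23e-06). Flna, which encodes the actin crosslinker filamin A, read 6.98, 7.89, 7.80, 7.83 and 8.08 and 10.70, 11.17, 9.71, 10.42 and 10.65 (2.81, adjusted p = 1.23e-06). KO replicate 3 was the lowest KO array for both genes, above every WT array.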
